A study of Homo sapiens with 2 samples.

Results

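The genes described here are the human ZNF genes, which carry a numbered zinc finger symbol, in native RNA of GM12878, an established line of B lymphoblasts immortalised by Epstein-Barr virus. Members were annotated genes whose symbol is ZNF, a number and at most 1 further letter, with 20 or more reads summed over all transcript models of the 2 libraries, so they were chosen by a measured value, their summed read count. There were 139 such genes among 426 ZNF genes with at least 1 read, out of 558 genes of the name pattern in GENCODE release 29. The series as a whole held 16645 annotated genes with a read, 8898 of which had 20 or more. Both libraries were made from GM12878 RNA, with no treatment named, and were read on a nanopore flow cell as native RNA, each strand from its 3′ end and without amplification. They form 1 group of 2 replicates, so the series offers no contrast between conditions, and nothing in the labels says that the replicates came from separate cultures. P-values therefore compare the reads of these 2 libraries, and intervals cover counting error only.

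A C2H2 zinc finger is a short protein fold in which a pair of cysteines and a pair of histidines hold a zinc ion, and arrays of such fingers can bind DNA. Many ZNF proteins also carry a KRAB box near the N terminus, which recruits TRIM28 and, through it, the histone methyltransferase SETDB1 and HP1 proteins, and represses transposable elements and genes. KRAB zinc finger genes lie in large clusters on chromosome 19 and typically place the whole finger array in a single last exon. Other ZNF proteins have few fingers and act in RNA metabolism, ribosome assembly or mitosis.

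The finger sequences below show how the fingers of members with different read categories are laid out over the exons. In ZNF146, ZNF22, ZNF24 and ZNF544, a finger and the linker after it lie wholly inside the last exon, while in ZNF593 and ZNF207 the finger is divided between the first and the second exon. The sequences are transcript sequences of GENCODE release 29 (GRCh38), written 5′ to 3′ on the strand of the gene, and capitals mark the codons of the zinc-binding cysteines and histidines.
ZNF146 (chr19:36236660-36236737, plus strand, exon 3 of 3): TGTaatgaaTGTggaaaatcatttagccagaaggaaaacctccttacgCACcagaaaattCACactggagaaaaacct
ZNF22 (chr10:45003621-45003698, plus strand, exon 2 of 2): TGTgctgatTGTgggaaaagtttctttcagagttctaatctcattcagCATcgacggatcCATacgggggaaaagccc
ZNF24 (chr18:35337421-35337498, minus strand, exon 4 of 4): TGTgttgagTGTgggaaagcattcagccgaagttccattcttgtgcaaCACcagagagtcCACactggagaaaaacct
ZNF544 (chr19:58261750-58261827, plus strand, exon 4 of 4): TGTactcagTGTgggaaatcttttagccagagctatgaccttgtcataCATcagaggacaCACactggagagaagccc
ZNF593 (chr1:26170170-26170472 with the intron, plus strand, exons 1 and 2 of 3): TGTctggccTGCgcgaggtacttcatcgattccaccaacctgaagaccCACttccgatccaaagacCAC
ZNF207 (chr17:32350322-32351846 with the intron, plus strand, exons 1 and 2 of 11): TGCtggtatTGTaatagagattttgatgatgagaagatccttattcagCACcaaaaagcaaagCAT

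The 4 last-exon fingers were 59.0 to 70.5% identical to each other over 78 bases, and 11 to 15 of the 15 linker bases were shared in each pair. In ZNF593 and ZNF207 the last 2 histidine codons were farther apart than in the other 4 genes. The search first required a fixed spacing of the histidines and a fixed linker peptide, which the 4 genes matched. ZNF593 and ZNF207 did not match and were searched with a looser pattern without the linker. The shared linker and the difference in spacing therefore follow in part from the search. These 6 genes were chosen for display after their values were seen.

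The symbol was checked against the encoded proteins of the 137 protein-coding members; the other 2, ZNF252P and ZNF271P, are pseudogenes. A search of the translated coding sequences for the C2H2 finger pattern found 1188 matches in 133 members, with a median of 8 and a maximum of 31 per gene, in ZNF646. The 4 members without a match were ZNF330, ZNF839, ZNF451 and ZNF720. Of the matches, 968 (81.5%) were encoded in the last exon of the reference transcript, and in 93 of the 133 members every match lay there. In 31 members no match lay in the last exon. A KRAB box was called when 6 of 9 letters of its pattern matched in the N-terminal part of the protein. It was found in 49 members (35.8% of those translated) against 329 of the 509 coding ZNF genes of the annotation (64.6%). The rest of longer proteins was not searched, so genes without the box are those with no such match. All 48 KRAB members that had a finger match had every match in the last exon; the exception without a match was ZNF720.

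ZNF genes were read at low levels. A read here is 1 RNA strand, so counts were not divided by length, and a level is given as CPM, the count scaled by the total of its library. The members together held 3635 of 1360368 reads in replicate 1 (0.267%) and 3972 of 1510998 in replicate 2 (0.263%). The median member had 37 reads over both libraries (13.1 CPM), against 84 reads (29.2 CPM) for the 8759 other annotated genes with 20 or more reads. Of the members, 86 had 20 to 49 reads, 41 had 50 to 99 and 12 had 100 or more. The 20-read minimum was met by 32.6% of the ZNF genes with a read, compared with 53.5% of all annotated genes with a read. The 287 ZNF genes below it held 2232 reads.

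KRAB genes had the fewer reads within the family. Only 14.9% of the 329 KRAB genes reached 20 reads, against 48.9% of the 180 coding ZNF genes without the box. The median was 27 reads in KRAB members and 47 in the others. No KRAB gene was among the 10 members with the most reads, and 1 had 100 or more: ZNF282, with 56 reads in replicate 1 and 47 in replicate 2. Chromosome 19 held 45 members (32.4%), compared with 46.8% of all ZNF genes of the annotation and 6.69% of the other genes with 20 or more reads; 25 of the 45 had a KRAB box.

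The most abundant members were genes with few fingers. ZNF207 encodes a BUB3-binding protein of the mitotic spindle; it had 220 and 234 reads in replicates 1 and 2 (158 ± 4.85 CPM, SD, n = 2). ZNF706, a short protein with a single finger match, had 208 and 222 reads (150 ± 4.23 CPM). ZNF593, a factor of large ribosomal subunit assembly, had 101 and 112 reads (74.2 ± 0.0859 CPM). ZNF598, the ubiquitin ligase that marks collided ribosomes, had 86 and 112 reads (68.7 ± 7.71 CPM). ZNF207 and ZNF706 together held 11.6% of all member reads and the top 10 members 28.7%. The leading pair stood apart: the lowest count of ZNF207 or ZNF706 in either library was above the highest of any other member. ZNF593 and ZNF598 overlapped in their read counts, both reaching 112 in replicate 2.

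The next members in level were ZNF428 (96 and 90 reads), ZNF672 (78 and 81), ZNF511 (66 and 80), ZNF580 (58 and 79), ZNF581 (75 and 60), ZNF787 (75 and 49) and ZNF622 (55 and 69), a second ribosome assembly factor. In CPM, ZNF428 (59.6 to 70.6) lay above ZNF672 (53.6 to 57.3) and ZNF672 above ZNF511 (48.5 to 52.9) in both libraries. From ZNF511 on, the ranges over the libraries overlapped from neighbour to neighbour, so that order was not resolved. Of the 10 members with the most reads, 5 had 2 or fewer finger matches. ZNF580 and ZNF581 are neighbours on chromosome 19 whose annotated spans overlap each other on the same strand. In all, 48 members overlapped another annotated gene on their own strand, and the assignment of reads to 1 of the genes is uncertain there.

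**Figure D1:**
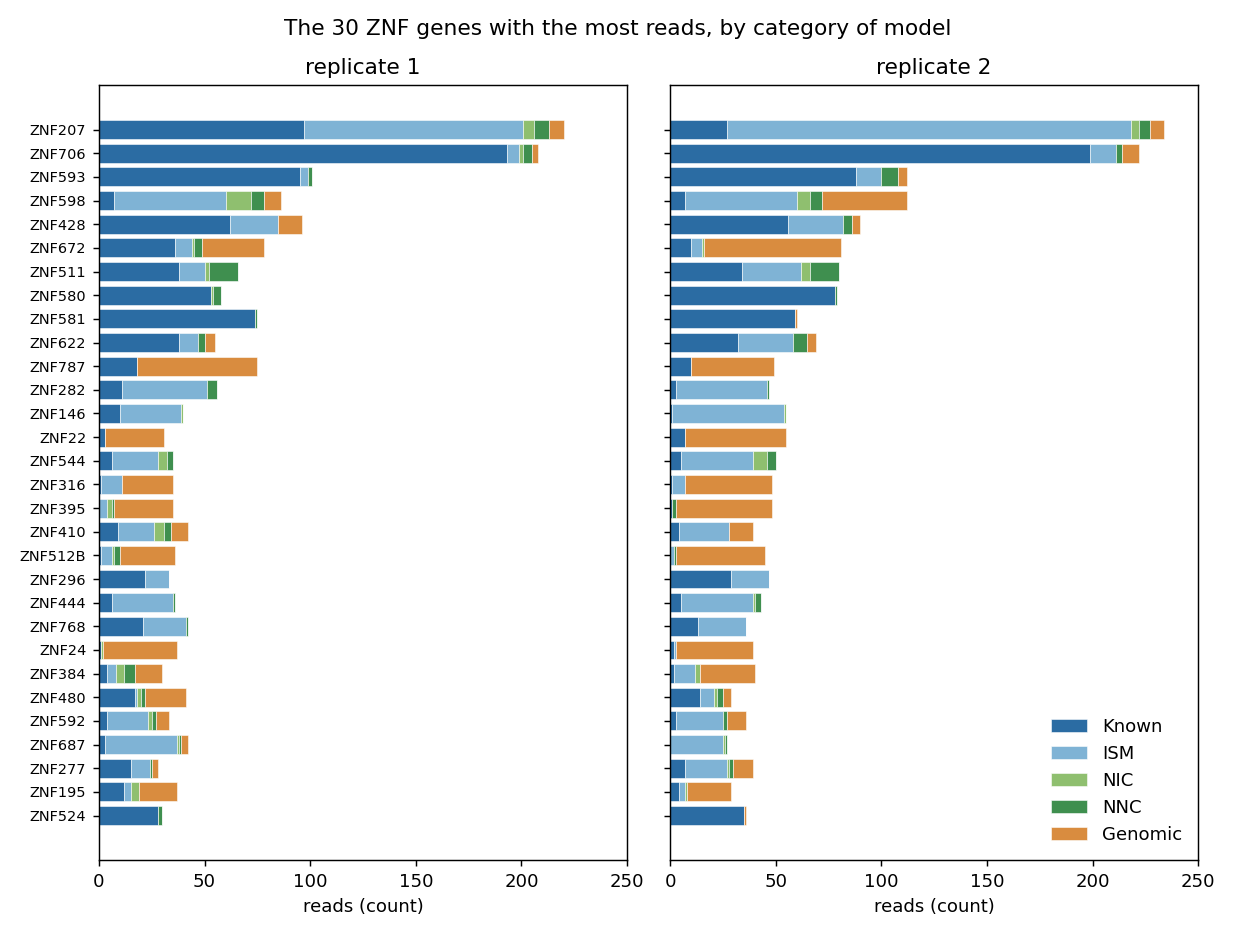
Reads (count) in each library of the 30 ZNF genes with the most reads, divided by the category of the transcript model. ZNF706, ZNF593, ZNF580 and ZNF581 consist mostly of known models, while ZNF787, ZNF22 and ZNF24 consist mostly of genomic ones, in both libraries.

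Groups of members with described roles were then compared. The 9 listed ZNF genes that act on RNA, ribosomes or the spindle were all members, with a median of 19.1 CPM and a range of 9.08 to 158 CPM. Besides ZNF207, ZNF593, ZNF598 and ZNF622, they were ZNF638, a silencer of unintegrated viral DNA (24 and 31 reads), ZNF346, a binder of double-stranded RNA (32 and 20), ZNF326, a regulator of splicing and elongation (22 and 20), ZNF451, a SUMO ligase (11 and 18), and ZNF830 (13 and 13). Of 14 listed ZNF genes that act on chromatin or promoters, 12 were members. They ranged from ZNF644, a partner of the G9a and GLP histone methyltransferases (6 and 14 reads), to ZNF410, an activator of CHD4 (42 and 39). ZNF148 had 7 and 12 reads, and ZNF532 had no read.

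No gene of a list of 9 KRAB zinc finger genes that silence repeats, imprinted genes or gene clusters reached 20 reads. The highest were ZNF445, a factor of imprint maintenance, with 9 and 10 reads, and ZNF141, with 6 and 13. ZNF274, which binds the 3′ ends of ZNF genes, had 8 and 7 reads. ZNF91 and ZNF93, which repress SVA and L1 elements, had 6 and 4 and 6 and 2 reads, and ZNF10 had 3 reads in replicate 1 and none in replicate 2. The corepressors that KRAB boxes use were present throughout: all 19 listed genes had reads, with a median of 55.3 CPM. TRIM28 itself had 588 and 576 reads (407 ± 36.1 CPM), more than any member, and SETDB1 had 20 and 29.

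The reads were next divided by TALON's category of their transcript model. Known models match an annotated transcript. Incomplete splice matches (ISM) have part of the junctions of an annotated transcript. NIC models combine splice sites of the annotation in a way it does not list, and NNC models use a splice site that it lacks. Genomic models overlap the gene without matching its splicing. These shares are the measure for which the members were assembled, and they are given as a description.

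Known models received 37.6% of member reads in replicate 1 (Wilson 95% interval 36.1 to 39.2%) and 27.8% in replicate 2 (26.4 to 29.2%). ISM models received 27.2% (25.7 to 28.6%) and 32.3% (30.9 to 33.8%). Genomic models received 25.5% (24.1 to 26.9%) and 34.0% (32.5 to 35.5%). NIC models held 4.37 and 2.27% of the reads and NNC models 5.34 and 3.65%. The other genes with 20 or more reads had 56.9 and 46.7% of their reads in known models and 10.6 and 14.9% in genomic ones, so the members were lower in the first category and higher in the second.

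Expressed as differences, the known share of the members lay at -19.3 points from that of other genes in replicate 1 (Newcombe 95% interval -20.9 to -17.7) and at -18.9 points in replicate 2 (-20.3 to -17.5). The genomic share was 14.9 points higher (13.5 to 16.4) and 19.1 points higher (17.6 to 20.6). The ISM share differed by 3.05 points in replicate 1 and by -0.13 points in replicate 2, so it had no common direction. These pooled shares weigh genes by their reads, and the gap in the known share depends on depth. Among genes with 20 to 49 reads the known share was 27.6 and 19.6% in members and 25.7 and 18.6% in other genes. With 50 to 99 reads it was 25.04 and 17.2% against 29.5 and 20.4%, and with 100 or more reads 61.5 and 48.8% against 59.6 and 49.4%. The genomic share of genes with 20 to 49 reads was 38.6 and 49.5% in members and 33.6 and 40.9% in other genes, and with 100 or more reads it was 10.2 and 13.9% against 8.88 and 12.8%. Over genes, the median known share was 15.6% in members and 20.4% in other genes, a smaller gap, and the median genomic share was 34.9% against 13.4%.

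**Figure D2:**
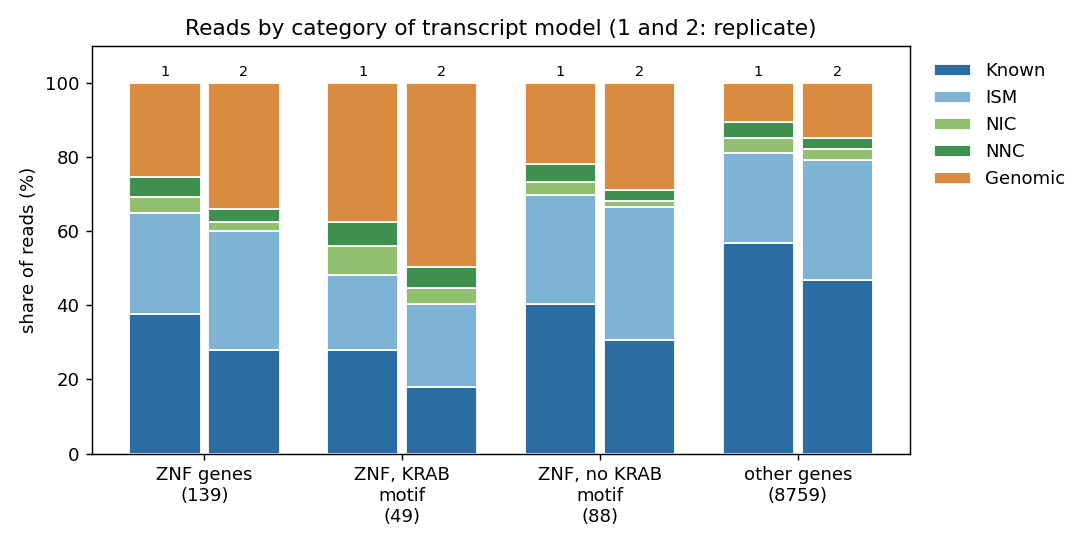
Share of reads (%) in each category of model, for all 139 ZNF genes, for coding members with and without a KRAB box, and for the 8759 other genes with 20 or more reads; bars 1 and 2 are the replicates. The genomic share is highest in KRAB members (37.4 and 49.6%), and in all 4 sets it is higher in replicate 2 than in replicate 1.

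Most of the reads outside known models were uninterrupted intervals. Reads in models of 1 exon that are not known, ISM or genomic, are called single-interval reads here, a measure added after the categories had been seen. They made up 38.4% of member reads in replicate 1 (36.9 to 40.02%) and 50.8% in replicate 2 (49.2 to 52.3%), against 14.1 and 20.3% in other genes. In 83 of the 139 members they were at least 50% of the reads (59.7%), as they were in 35.1% of other genes. Among genes with 20 to 49 reads, 65.1% of members and 49.5% of other genes reached that share. When only models with 2 or more exons were counted, the known share of members had a mean of 56.8%, and its difference from other genes was -1.88 points.

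The 1-exon reads were filed under different categories in different genes. There were 1151 of them in 69 ISM models, and 85.1% of these reads were in models exactly as long as an annotated last exon of the gene. There were 2263 in 257 genomic models, none of which had that length, although 90.7% of the reads were in models no longer than the longest annotated last exon. Of 108 members with 10 or more single-interval reads, 27 had at least 90% of them filed as ISM, 67 had at least 90% filed as genomic and 14 were mixed. The table holds no coordinates, so the places of these reads within the genes were not compared. In all, 50.7% of the members' ISM reads were in 1-exon models, compared with 16.1% in other genes.

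ZNF146, a protein made almost entirely of fingers, is an example of the first kind. Its last exon has 3113 bases, and the 1-exon ISM model of the same length held 27 of 40 reads in replicate 1 and 53 of 55 in replicate 2. In ZNF282, a 2437-base model of the same type held 36 of 56 and 39 of 47 reads. ZNF609 and ZNF865 had such models at 4377 and 3677 bases, with 22 and 29 reads and with 21 and 25. ZNF22 and ZNF24, whose fingers are laid out like those of ZNF146, had most of their reads in 1-exon genomic models: a 865-base model held 22 of 31 and 37 of 55 reads of ZNF22, and a 589-base model held 21 of 37 and 27 of 39 reads of ZNF24. The listed lengths of genomic models are not all usable. Of them, 13 models with 159 reads were listed under 50 bases, among them one of ZNF217 that was listed at 9 bases and held 22 and 34 reads.

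The model with the most reads was a single-interval genomic model in 73 members, a known model in 31, a single-interval ISM model in 30, a multi-exon ISM model in 4 and an NNC model in 1. The known models include annotated 1-exon transcripts, as in ZNF623 and ZNF628. Suffix ISM models, which keep the 3′ end of a spliced transcript, made up 43.8 and 40.9% of the members' ISM reads. In other genes they made up 68.6 and 68.2%. Prefix models, which keep the 5′ end, made up 6.08 and 3.35% in members. ISM models without a subtype, nearly all of 1 exon by reads, held 48.5 and 53.1% in members and 15.3 and 17.2% in other genes. The totals of the 2 sets thus differ in 1-exon reads. The lower suffix share of members is therefore not read as a difference among spliced ISM models, whose shares alone were not compared.

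Pooled over reads, KRAB members had the larger single-interval share. It was 48.9% (45.5 to 52.2%) and 64.1% (61.0 to 67.1%) in the 49 KRAB members, and 35.4% (33.6 to 37.2%) and 46.5% (44.7 to 48.3%) in the 88 coding members without the box. Known shares were 27.9 and 18.0% with the box and 40.4 and 30.8% without it. Over genes, the median single-interval share was 62.1% with the box and 55.2% without, a smaller gap in replicate 2 terms than the pooled one. The median known share over genes ran the other way, at 19.2% with the box and 14.4% without. KRAB members had fewer reads, with a median of 27 against 47. None of the 10 members with the most reads had the box, and these weigh on the pooled shares without it. The part of depth in these differences was not tested. Without the 10 members with the most reads, the pooled known share of all members was 22.1%.

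The share of single-interval reads moved with the length of the last exon. The reference transcript's last exon had a median of 2186 bases in members and 1183 in other genes, 2785 in KRAB members and 1749.5 in members without the box. A median of 78.1% of the coding sequence lay in the last exon of members, against 10.5% in other coding genes. Across the 135 members with more than 1 exon, Spearman's rho between last exon length and single-interval share was 0.60, and across 8355 other genes it was 0.61. These are correlations across genes, which share the 2 libraries and are not independent replicates.

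At matched last exon lengths of 1000 bases or more, medians over genes differed less between members and other genes than shares of pooled reads did. For shorter last exons this did not hold throughout. With last exons under 500 bases the median single-interval share was 7.04% in 7 members and 5.08% in other genes. From 500 to under 1000 bases it was 29.03% in 13 members and 21.6% in other genes. From 1000 to under 2000 bases the medians were 48.6 and 46.8%, and from 2000 to under 4000 bases they were 64.9 and 66.7%, with 39 and 45 members. At 4000 bases or more they were 80% in 31 members and 64.8% in other genes. Pooled over reads, the share under 500 bases was 2.61 and 5.92% in members and 4.53 and 7.65% in other genes. From 500 to under 1000 bases it was 21.3 and 36.3% against 15.2 and 24.7%. From 1000 to under 2000 bases it was 36.5 and 50.7% against 25.3 and 35.8%. From 2000 to under 4000 bases it was 56.1 and 72.9% against 30.5 and 39.4%, and from 4000 bases on 67.8 and 76.7% against 36.9 and 44.4%. Read depth moved with the same share. In genes with 20 to 99 reads the last 3 of the pairs of medians were 48.6 and 50%, 64.9 and 70.8%, and 80 and 71.5%. The part of depth and of exon length in the difference between members and other genes was not tested.

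**Figure D3:**
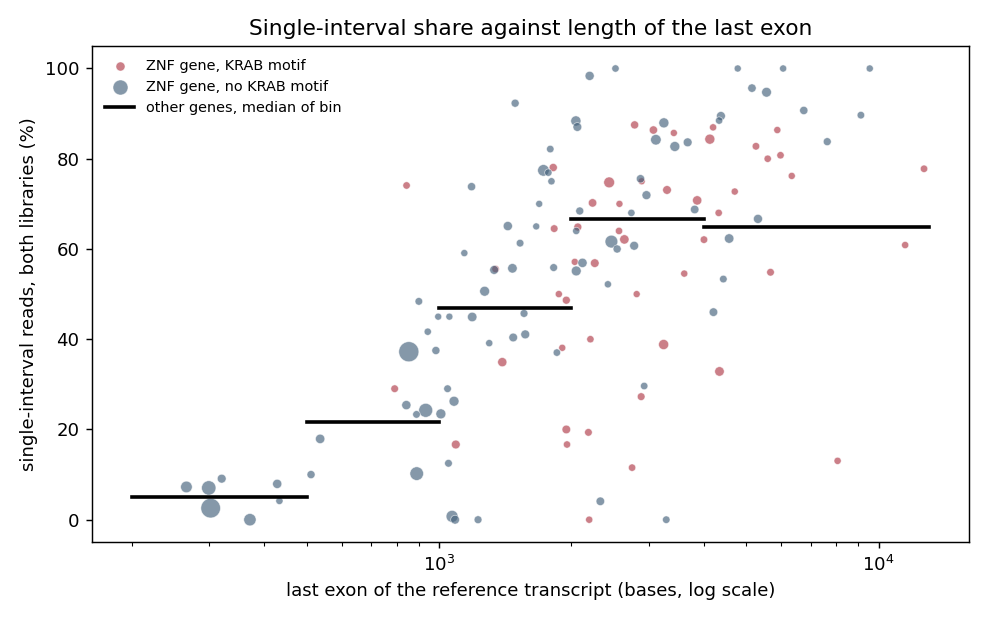
Single-interval share of reads (%, both libraries) against the length of the last exon (bases, log scale) for ZNF genes with more than 1 exon; point size grows with the number of reads, and black lines are medians of other genes in each length bin. Members with last exons under 500 bases sit near the 5.08% of other genes, and those of 4000 bases or more have a median of 80%.

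Level and category were also related within the family, mainly through the members with the most reads. In the 12 members with 100 or more reads the median known share was 52.9%, above the 32.3% of other genes of that depth, and the median single-interval share was 8.74% against 17.4%. In the 86 members with 20 to 49 reads and in other genes of that depth the medians of the single-interval share were 61.7% and 48.4%. With 50 to 99 reads they were 55.7 and 37.7%. The median known share of members was 15.8% with 20 to 49 reads and 13.9% with 50 to 99, so only the 12 largest stood apart in it. ZNF581 had the highest known share of the abundant members, with 74 of 75 and 59 of 60 reads in known models. ZNF580 followed with 53 of 58 and 78 of 79, and ZNF706 with 193 of 208 and 199 of 222. All 3 were known in nearly every read in both libraries. In ZNF580, 12 and 26 of these reads were in an annotated 1-exon transcript, which counts as known and not as single-interval.

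At the other end of the abundant members, ZNF787 had 57 of 75 and 39 of 49 reads in genomic models, nearly all of them in a single 700-base model with 56 and 37 reads. ZNF282 had 40 of 56 and 43 of 47 reads in ISM models. Members with long last exons and few single-interval reads were picked out after their values were seen. ZNF585A, with a last exon of 8067 bases in its reference transcript, had 10 of 12 and 7 of 11 reads in known models, all of them in a 3-exon annotated transcript of 596 bases. ZNF628, with 3287 bases, had all of its 8 and 21 reads in known models, but 6 and 20 of them were in an annotated 1-exon transcript of 3177 bases. ZNF275 and ZNF292 had last exons of 6064 and 9547 bases, and all of their 11 and 11 and their 6 and 16 reads were single-interval.

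Among the role lists, the median single-interval share was 24.2% in the 9 genes of RNA, ribosomes and the spindle and 55.7% in the 13 read genes of chromatin and promoters, beside 56.9% over all members. The lists overlapped widely. Shares ran from 0% in ZNF830 to 89.7% in ZNF451 in the first list, and from 7.94% in ZNF335 to 100% in ZNF281 in the second. In ZNF830, 11 of 13 and 13 of 13 reads were in an annotated 1-exon transcript, which counts as known. No difference between the roles is read from these medians. ZNF217, a subunit of CtBP and CoREST complexes, had 24 of 25 and 36 of 36 reads in single intervals. ZNF281 had all of its 12 and 9 reads in single intervals. ZNF335, a subunit of histone methyltransferase complexes, stood at the low end with 7.94%, and ISM models held 66.7% of its 63 reads.

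Spliced unannotated models of members seldom recurred. Of 199 NIC models, 14 (7.04%) had a read in both libraries, and of 265 NNC models 14 (5.28%) did, compared with 15.9 and 11.5% in other genes, which had more reads per gene. Of 250 known models, 131 (52.4%) were read in both. The NNC model with the most reads was a 6-exon model of ZNF511 with 1058 bases and 8 reads in each library, 12.1 and 10% of that gene. A second 6-exon NNC model of ZNF511, of 988 bases, had 3 and 3 reads, and a 3-exon model of ZNF593 had 2 and 7. ZNF511 is annotated on the same strand as the readthrough gene ZNF511-PRAP1. The leading NIC model was a 2-exon model of ZNF749 with 7 of 14 and 3 of 9 reads. A 10-exon NIC model of ZNF496 followed with 4 and 2 reads, and a 10-exon model of ZNF207 with 2 and 3. The leading known models were ZNF706-201 with 184 and 172 reads, ZNF593-202 with 95 and 88 and ZNF581-201 with 71 and 56.

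The replicates were compared gene by gene. The known share of members fell by 9.81 points from replicate 1 to replicate 2 (Newcombe 95% interval of the difference -11.9 to -7.71), and that of other genes fell by 10.2 points. The single-interval share rose by 12.3 points in members (10.1 to 14.6) and by 6.20 points in other genes. Over genes the known share was lower in replicate 2 in 92 members and higher in 30, and the single-interval share was higher in 101 and lower in 23. These counts are near the background: the known share was lower in 66.2% of members and 70.9% of all genes with 20 or more reads, and the single-interval share was higher in 72.7 and 74.7%. The replicates carry the same label, so these shifts lie between libraries of 1 group.

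At the level of whole genes, few members passed the test. In the exact binomial test against the library totals, with Benjamini-Hochberg adjustment over 10634 genes with 10 or more reads, 1 of 139 members passed 0.05, against 5.05% of all genes tested (2.72% higher and 2.33% lower in replicate 2). It was ZNF385A, an RNA-binding partner of p53, with 15 reads in replicate 1 and 41 in replicate 2 (log2 ratio 1.27, adjusted p = 0.0409). The call was lost with TMM factors and without a read minimum. At an unadjusted p under 0.05 there were 10 members (7.19%), against 15.8% of all genes. The log2 ratio of the libraries was within 1 in either direction in 92.8% of members and 94.7% of all genes with 20 or more reads.

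For the known share, 6 of 139 members passed Fisher's exact test with adjustment over 8898 genes, against 18.3% of all genes tested, and all 6 were lower in replicate 2. Of all genes, 18.1% were called lower and 0.202% higher. ZNF207 had 97 of 220 reads in known models in replicate 1 and 27 of 234 in replicate 2 (adjusted p = 2.52e-13, Fisher's exact test). Its transcripts ZNF207-204 and ZNF207-203 went from 60 to 16 and from 37 to 11 reads, while its 745-base single-interval ISM model went from 54 to 101 and a 3-exon suffix model from 9 to 36. The total for the gene was nearly equal in the libraries. ZNF672, a protein with 14 finger matches, had 36 of 78 and 10 of 81 known reads (adjusted p = 6.82e-05, Fisher's exact test), and ZNF593 had 95 of 101 and 88 of 112 (adjusted p = 0.0112, same exact test). The other 3 were ZNF146, ZNF277 and ZNF766, named after their values were seen. At an unadjusted p under 0.05 there were 11 members, against 27.6% of all genes. Members have fewer reads than other genes, so the smaller share of calls is not read as a property of the family.

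For the genomic share, 4 members passed, all higher in replicate 2, against 6.93% of all genes tested (6.91% higher and 0.0225% lower), and 10 against 15.3% did at an unadjusted p under 0.05. ZNF598 had 8 of 86 and 40 of 112 reads in genomic models (adjusted p = 0.000491, Fisher's exact test), with 7 and 40 of them in 1 model of 497 bases. ZNF672 had 29 of 78 and 65 of 81, all in 1 model. The others were ZNF671 and ZNF212. For the single-interval share, 6 members passed, against 12.6% of all genes tested (12.6% higher and 0.0337% lower), and 19 against 23.9% did at an unadjusted p under 0.05. ZNF207, ZNF598, ZNF672, ZNF146 and ZNF671 were higher in replicate 2. ZNF480, a KRAB member, was lower, with 19 of 41 and 4 of 29 reads (adjusted p = 0.041, Fisher's exact test).

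**Figure D4:**
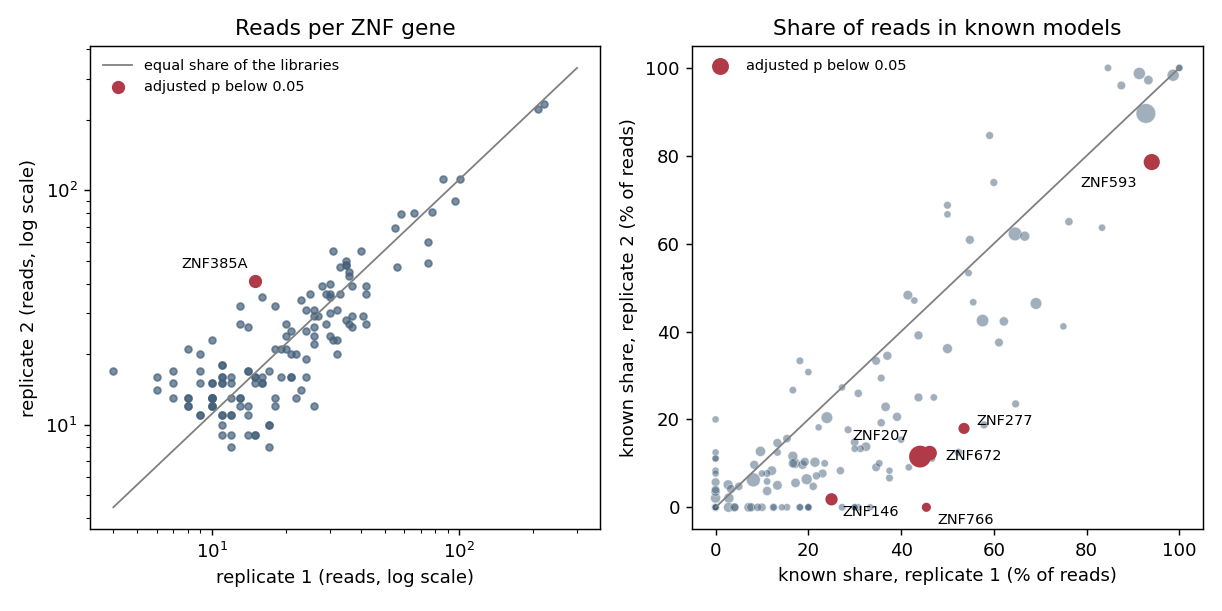
Left, reads of each ZNF gene in replicate 1 against replicate 2 (log scales), with a line at equal shares of the libraries; right, the share of reads in known models (%) in the same libraries, with a line at equality. Most points on the right lie under the line, and the 6 members with an adjusted p below 0.05 all do.

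Genes on either side of the read minimum are given for comparison. The 8 members at 20 reads were ZNF143, ZNF202, ZNF446, ZNF45, ZNF623, ZNF644, ZNF689 and ZNF75A, with single-interval shares from 0 to 75%. The 0% was that of ZNF623, with 6 of 8 and 12 of 12 reads in an annotated 1-exon transcript, which counts as known. The 13 ZNF genes at 19 reads ranged from 31.6% in ZNF789 to 100% in ZNF141. They also included ZNF148, ZNF160, ZNF189, ZNF445, ZNF473, ZNF506, ZNF516, ZNF652, ZNF7, ZNF783 and ZNF784.

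The cell line was checked with lineage markers. All 7 B cell markers were read, from PAX5 with 54 and 70 reads to CD74 with 10565 and 12221. Of 6 markers of other lineages, ALB, HBG1, GATA1 and LYZ had no read, COL1A1 had 2 and 3, and CD3E had 5 and 16.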

How the data were processed

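Direct RNA reads of 2 replicate GM12878 libraries were analysed. The authors deposited a table of raw read counts per transcript model, made with TALON per the file headers, with each model's exon number and length as other properties. The submitters' processing notes name hg38 and minimap2; versions and read filters are not given in the sources used here. All annotated gene identifiers (100%) were found in GENCODE release 29, which gave positions, exons and coding sequences. The reference transcript was the best-ranked principal one, then the one with the longest coding sequence.

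The libraries comprised 1360368 (replicate 1) and 1510998 reads (replicate 2). A single read equalled 0.735 and 0.662 CPM, and a count of 0 allows up to 3 reads (2.21 and 1.99 CPM). Gene counts were summed over models. Shares have Wilson 95% intervals, and differences of shares have Newcombe intervals. Levels were compared with two-sided exact binomial tests over genes with 10 or more reads and shares with two-sided Fisher's exact tests over genes with 20 or more, each adjusted by Benjamini-Hochberg over those genes and called at 0.05. Log2 ratios used 0.5 added reads. Python 3.11.15, scipy 1.17.1 and pandas 2.3.3 were used. TMM factors (edgeR 4.0.16) and DESeq2 1.42.0 size factors were alternatives. The tests were checked on simulated data that varied by counting error only. Changes were placed only in genes with more reads than the median member has. The check therefore does not cover most members or other differences between the libraries.

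Genes were named by rule: the 10 members with the highest mean CPM; among members with 100 or more reads, the 3 with the highest share in each category and those past a test; the role and corepressor lists; the leading known, NIC and NNC models; and the genes at 20 and 19 reads. Other genes, such as the examples of 1-exon models, the members with long last exons and the called members with fewer than 100 reads, were named after their values were seen. The members and lists were chosen with earlier results of these data known. No sequence of chromosome 8 is shown, and no protein sequence was used from outside the annotation.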

Additional observations from a re-analysis of the deposited data

How the results depend on the processing

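Shares below are means of both libraries, shifts are replicate 2 minus replicate 1, and gaps are members minus other genes, in percentage points. No paired analysis was possible because both libraries belong to 1 group. Leaving out 1 replicate leaves the value of the other: the known share ranged from 27.8 to 37.6%, its gap from -19.3 to -18.9, the genomic share from 25.5 to 34.0%, its gap from 14.9 to 19.1, and the single-interval share from 38.4 to 50.8%. The ISM gap ranged from -0.13 to 3.05 and the NIC gap from -0.62 to 0.27, so neither direction holds in both libraries. The cause was not tested for any value in this paragraph, beyond what each setting leaves out.

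With genomic models left out of the total, the known share was 46.3% (gap -13.0), the ISM share 42.7% (shift 12.5, gap 10.2) and the NNC share 6.35% (gap 2.15). The NIC gap was 0.66, and the single-interval share was 21.7% (shift 8.31, gap 16.4). With models of 2 or more exons only, the known share was 56.8% (shift -6.23, gap -1.88), the NIC share 6.12% (gap 1.496) and the NNC share 8.42% (gap 3.56). The ISM shift was 9.38 and its gap -3.44, and the genomic share was 0.337% (shift 0.31, gap 0.27). With models of 5 or more reads only, the known shift was -12.3 and its gap -18.6. The NIC share was then 0.369% (shift -0.23, gap -1.85), and the NNC share was 0.718%, with a shift of 0.0241 and a gap of -1.24 that both changed sign. The genomic gap was 20.6 and the single-interval gap 34.5.

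With genes of 50 or more reads, the known gap was -15.6, the ISM gap 4.90, the genomic share 22.7% (gap 10.8) and the single-interval gap 22.7. With 100 or more reads, the known share was 55.2% (shift -12.7) and its gap changed sign to 0.65. The ISM shift was 10.003 and its gap -0.79, and the NIC share was 1.59% (shift -0.74, gap -1.79). The NNC shift was -0.29, the genomic share 12.1% (shift 3.71, gap 1.23) and the single-interval share 22.4% (shift 7.75, gap 7.62).

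As medians over genes, the known share was 16.1% (shift -12.2, gap -4.61), and the ISM share was 15.9%, with a shift that changed sign to -0.98 and a gap of -10.6. The NIC share was 0% (shift 0, gap -1.22). The NNC share was 1.59%, with a shift of -3.18 and a gap that changed sign to -2.34. The genomic share was 39.3% (shift 21.4, gap 26.3) and the single-interval share 57.2% (shift 18.8). Without the 10 members with the most reads, the known share was 22.1% (gap -29.7), the genomic share 38.1% (gap 25.4) and the single-interval share 55.8% (gap 38.6). With coding genes only, the known gap was -17.4. In members without same-strand overlap, an alternative chosen after seeing the data, the known gap was -20.1, the ISM share 24.3% (shift 2.13, gap -3.94) and the genomic share 36.1% (gap 23.3).

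The number of members called in the level test was 0 with TMM factors and 0 without a minimum, 4 on known models only (ZNF207, ZNF580, ZNF628 and ZNF672) and 2 without genomic models (ZNF671 and ZNF672). With models of 2 or more exons only, 2 members were called for the known share (ZNF207 and ZNF622) and 0 for the genomic share. In 103 other cases the value stayed within a limit that depended on its kind. The limit was the SD of the replicates for shares and gaps, the counting interval for shifts and a set ratio for counts of calls. Shares and gaps left after dropping 1 replicate always fall within that SD, so they are no check. Among the 103 cases, the sign of the ISM gap changed without replicate 1. That of the NIC gap changed without replicate 2, with coding genes only (0.35) and without the top 10 members (0.45). With a median of 37 reads per member, only large shifts within a gene can pass these tests, and single-gene shares carry wide counting error.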

Other observations

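Single-interval reads were also frequent in genes of other zinc finger name families with 20 or more reads. Non-member genes of 20 to 49 reads, given for comparison, had 41.3 and 51.8% of their reads in single intervals. The part of depth in the shares of these families was not tested. In 18 ZBTB genes, whose proteins join a BTB domain to C2H2 fingers, the single-interval share was 44.1% (95% Wilson interval 39.8 to 48.5%) in replicate 1 and 53.2% (48.95 to 57.4%) in replicate 2. In 7 ZFP genes it was 78.7 and 86.8%, all of it in genomic models. Over genes, the median share was 78.4% in ZBTB and 70% in ZFP genes. The 2 ZSCAN genes had 12 of 20 and 25 of 31 reads in single intervals, and the 2 ZKSCAN genes 16 of 24 and 28 of 33.

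On chromosome 19, the 45 members had a pooled known share of 46.7 and 38.9%, against 34.1 and 23.2% in the 94 members elsewhere. Over genes, the median known share was 26.1% on chromosome 19 and 11.8% elsewhere. A large part of the 475 and 455 known reads on chromosome 19 came from 3 genes. These were ZNF428 (62 and 56), ZNF580 (53 and 78) and ZNF581 (74 and 59). The 25 KRAB members of chromosome 19 had a known share of 31.4 and 21.3%, below that of all members there. The single-interval share of these 25 was 41.5% (36.5 to 46.7%) and 54.2% (49.6 to 58.8%). The pseudogene ZNF271P had 16 of 21 and 13 of 20 reads in known models, while ZNF252P had 1 of 10 and 1 of 13.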
